A study of Macaca mulatta with 24 samples.

Results

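The comparison described here set 8 heavy drinking rhesus macaques against 8 low drinking ones, 16 of the 24 animals in the series. Animals were placed by their labelled drinking category. The HD* group joined 4 animals labelled HD (heavy) with 4 labelled VHD (very heavy), and the LD group held the 8 animals labelled LD, in which the study had combined light and binge drinkers. All were unrelated adult males of *Macaca mulatta* from 4 cohorts. The study gives one age range for all animals except a few older ones, all of them in the LD group. It found age not to be a significant covariate, and age was not modelled here. Both drinking groups had been induced to drink 4% (w/v) ethanol by a food delivery schedule (schedule-induced polydipsia). They then chose freely between ethanol and water for 22 hours a day over 12 months, and tissue was taken without imposed abstinence. The other 8 animals were controls that went through the same sessions with water and a caloric match of maltose dextrin. Each animal gave 1 RNA-Seq library of the nucleus accumbens core (NAcc), so every n below counts animals.

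LD animals drank 1.58 ± 0.53 g/kg of ethanol a day (SD, n = 8), with single animals between 0.47 and 2.07 g/kg. HD* animals drank 3.14 ± 0.326 g/kg a day (SD, n = 8), with single animals between 2.74 and 3.78 g/kg. Intake defines the categories, so this gap describes the groups and was not tested. The groups were also unevenly spread over cohorts. HD* animals came from cohort 5 (4 animals) and cohort 7a (4 animals), and LD animals from cohort 4 (2 animals), cohort 7b (3 animals) and cohort 7a (3 animals). Cohort 7a is thus the only cohort with both groups. Among the drinkers outside it, cohort and drinking category cannot be told apart. The controls came from cohort 5 (3 animals), cohort 7b (3 animals) and cohort 7a (2 animals). A fit with cohort as a covariate relies on them to link the cohorts.

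The core of the nucleus accumbens is a part of the ventral striatum in which dopamine and glutamate inputs meet on GABA-releasing projection neurons. These neurons carry either DRD1 or DRD2 dopamine receptors and use opioid and tachykinin peptides as co-transmitters. The region is known for its part in reward learning and in the voluntary intake of ethanol.

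Marker genes of the striatum were found in both groups. All 24 striatal projection neuron markers in the data were above 0 in every drinker, and their summed level ran from 5927 to 16630 TPM in LD and from 5542 to 16810 TPM in HD* animals. TPM is each gene's share of an animal's messenger RNA, corrected for transcript length. *PPP1R1B*, which encodes the dopamine signalling protein DARPP-32, had a median of 2694 TPM in LD and 2871 TPM in HD* animals. Some markers of other cells varied widely among animals of the same group. Summed oligodendrocyte markers ran from 2359 to 8681 TPM in LD and from 3149 to 6775 TPM in HD* animals. Those of oligodendrocyte precursors kept to a narrower span, from 571.1 to 757.2 TPM in LD and from 535.6 to 685.9 TPM in HD* animals. Cortical and pallidal glutamatergic markers, which should be scarce in the NAcc, summed to between 25.49 and 1113 TPM in LD and between 25.04 and 300.3 TPM in HD* animals. Their defining gene, the vesicular glutamate transporter *SLC17A7*, exceeded 100 TPM in LD animals 2, 4 and 6 and in HD* animal 7. Among 6 blood genes, the red cell genes *ALAS2* and *SLC4A1* were at 0 in 13 of the 16 drinkers and at most at 0.0591 TPM in the others. The haemoglobin gene *HBB* was above 0 in every drinker, from 0.165 to 22.4 TPM in LD and from 0.666 to 6.61 TPM in HD* animals. *LYZ*, which encodes the lysozyme of myeloid cells, was above 0 in every drinker as well and reached 18.03 TPM. The part of blood in the differences below was not tested. In bulk tissue, fewer cells of a type and less RNA per cell cannot be told apart.

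**Figure D1:**
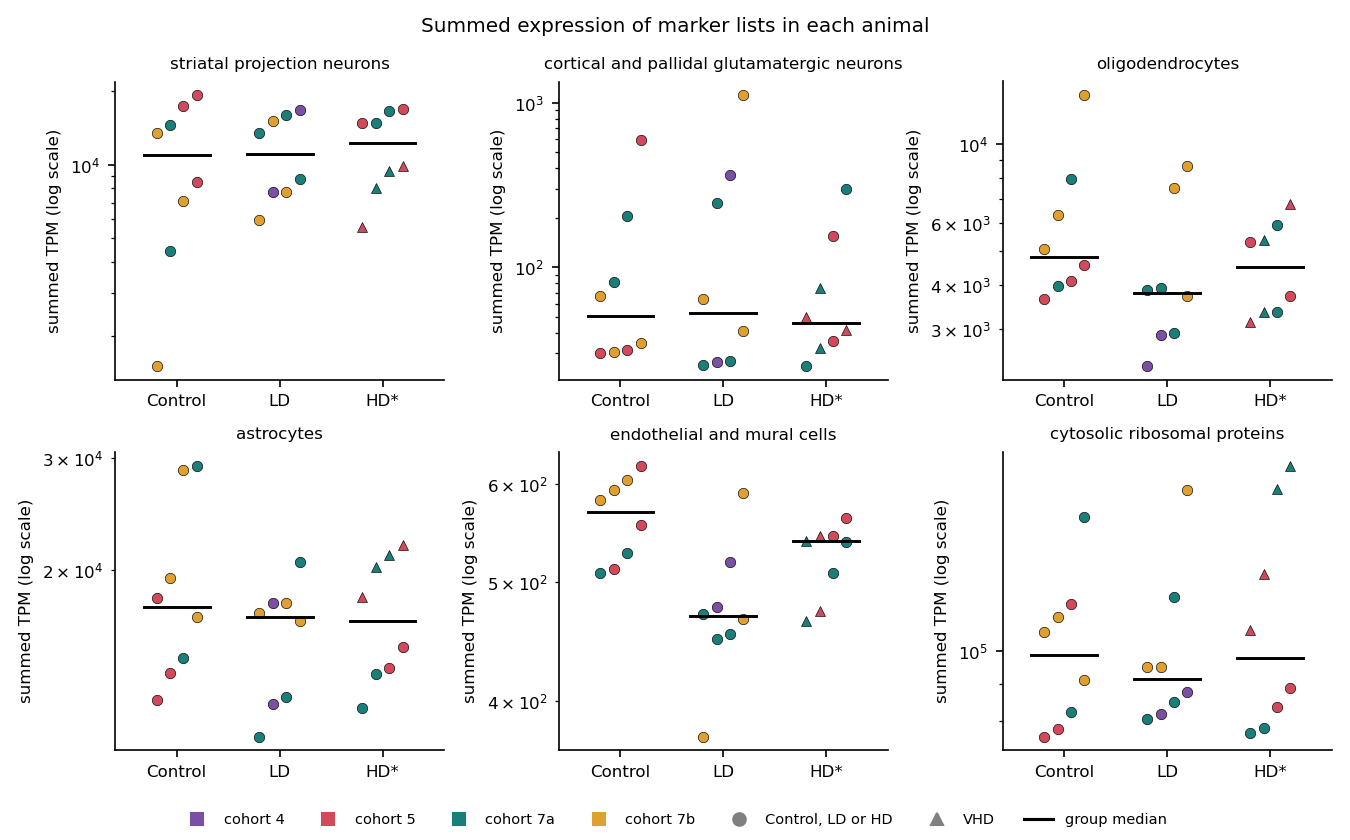
Summed TPM (log axis) of 6 gene lists in each control, LD and HD* animal. Colour gives the cohort, triangles mark VHD animals and bars are group medians. The projection neuron sums of LD and HD* animals cover nearly the same range. Within the HD* group, the 4 VHD animals lie below the 4 HD animals in projection neuron sums. In astrocyte and ribosomal sums they lie above them.

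A few libraries stood apart from the rest, and they are named here because they touch the results below. TMM scaling factors (from a trimmed mean of the log ratios between libraries, which follows the bulk of genes) were 0.706 in HD* animal 8, 0.824 in HD* animal 6 and 0.847 in LD animal 5, and above 0.9 in the other 13 drinkers. The same 3 animals had the highest summed ribosomal protein levels of the drinkers, at 180900, 167900 and 167100 TPM. Correlations of log2(TPM + 1) between pairs of drinkers ran from 0.910 to 0.989. How many reads stand behind each value is not told by the files used here, so the depth of each library is unknown and no counting error is given.

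No gene separated HD* from LD animals in limma on these TPM values after correction for multiple testing. The study's own test of this contrast, DESeq2 on read counts, reported a few genes at an FDR under 0.05. Of the 9197 genes that averaged 10 TPM or more across the 24 animals, 0 (0%) passed an adjusted p of 0.05 (limma with Benjamini-Hochberg adjustment, smallest adjusted p = 0.914). An unadjusted p under 0.05 was reached by 67 genes (0.728% of those tested), where 5% would be expected on average if no gene differed. Genes are not independent, which widens the spread of that share around 5%. Among them, 22 genes (0.239%) were higher and 45 (0.489%) lower in HD* animals. After TMM rescaling the 108 genes at that level were 66 higher and 42 lower, so the balance of directions depended on the scaling. Across all genes tested, 25.9% were higher in HD* animals, with a median log2 fold change of −0.085, against 49.2% and −0.003 after TMM rescaling.

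The intervals show how large a difference these 16 animals could still hold. The median half-width of the 95% interval was 0.312 on the log2 scale. For 8947 genes (97.3%) the interval lay within a 2-fold change in either direction, a log2 fold change of −1 to 1. For 5839 genes (63.5%) it lay within −0.5 to 0.5. All fold changes are on the log2(TPM + 1) scale, on which the change of weakly expressed genes comes out too small.

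**Figure D2:**
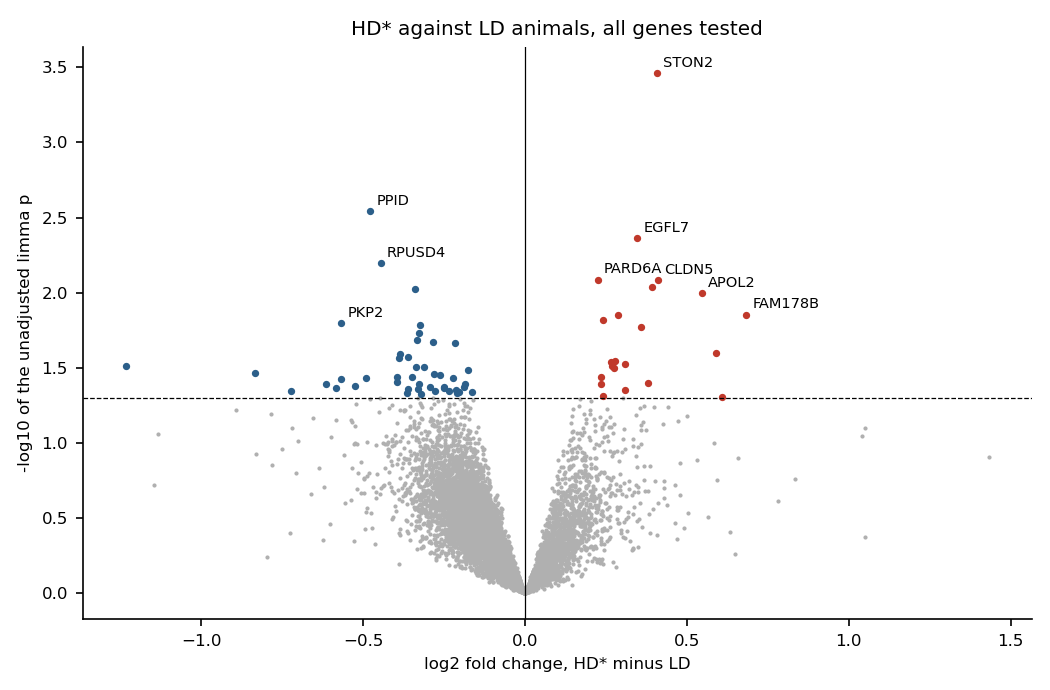
Log2 fold change (HD* minus LD) against the unadjusted limma p, as −log10, for all 9197 genes tested. Red and blue points are the 22 higher and 45 lower genes above the dashed threshold line, and *STON2* lies farthest up.

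The gene with the smallest p was *STON2*, which encodes stonin 2, an endocytic adaptor that sorts the vesicle protein synaptotagmin back from the cell surface. Its lowest, median and highest levels were 15.5, 16.8 and 18.7 TPM in LD and 20.04, 22.4 and 26.2 TPM in HD* animals. All 8 HD* animals were above all 8 LD animals, and *STON2* was the only gene tested (1 of 9197, 0.0109%) whose groups did not overlap with HD* higher. There were 0 such genes (0%) with HD* lower. The log2 fold change was 0.41 (SE 0.098, limma adjusted p = 0.914). It was 0.30 within cohort 7a (limma unadjusted p = 0.116) and 0.50 among the 9 drinkers outside it. Both sets are parts of the 8 and 8 animals, so their groups could not overlap either. The difference was of like size in HD (0.41) and VHD animals (0.40) set against LD animals. Controls ran from 15.1 to 26.7 TPM with a median of 23.8 TPM, and so covered the range of both drinking groups.

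Most other endocytosis genes had the opposite sign. Of 35 tested genes of clathrin-mediated endocytosis, HD* animals had 5 higher, *STON2* included, and 30 lower. Their median log2 fold change was −0.14 beside −0.085 over all genes. After TMM rescaling 13 were higher and 22 lower, with a median of −0.05. At an unadjusted p under 0.05 were *STON2* and *PACSIN1*, a neuronal dynamin-binding protein. *PACSIN1* had a median of 430.6 TPM in LD and 382.8 TPM in HD* animals (log2 fold change −0.19, limma unadjusted p = 0.0424). After TMM rescaling its difference was −0.10 (limma unadjusted p = 0.383).

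A pair of genes of the blood vessel wall, *EGFL7* and *CLDN5*, were also among the 22 higher genes. *EGFL7*, a protein secreted by endothelial cells, ran from 41.98 to 75.4 TPM in LD (median 47.7) and from 51.8 to 74.8 TPM in HD* animals (median 64.2). Its log2 fold change was 0.35 (SE 0.11, limma adjusted p = 0.914). The groups overlapped through LD animals 4 and 7, while the other 6 LD animals were below every HD* animal. *CLDN5* encodes claudin 5, the tight junction protein of the blood-brain barrier. It ran from 33.7 to 53.4 TPM in LD (median 47.4) and from 38.2 to 88.2 TPM in HD* animals (median 63.6), with a log2 fold change of 0.41 (SE 0.143, limma adjusted p = 0.914). The 2 HD* animals within the LD range were animals 1 and 4, both VHD animals of cohort 5. Within cohort 7a all 4 HD* animals were above all 3 LD animals for both genes, with log2 fold changes of 0.44 and 0.55. In that cohort 93 of all genes tested (1.01%) were higher without overlap. Its animals also entered the fit that named these genes, so this is no separate support. Outside cohort 7a the differences were 0.24 and 0.22. Without HD* animals 6 and 8 and LD animal 5 the *CLDN5* difference was 0.24.

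Endothelial and mural markers as a list gave 9 higher and 2 lower of 11 tested genes, beside 25.9% of all genes higher, with a median log2 fold change of 0.06. After TMM rescaling 11 were higher and 0 lower, with a median of 0.15. Their other 9 members had an unadjusted p of 0.05 or above. The summed level of the list ran from 374.1 to 590.2 TPM in LD and from 464.9 to 563.1 TPM in HD* animals, so the groups overlapped. The other 13 markers of these cells fell under the 10 TPM limit and were not tested. Of these, 6 had a higher and 7 a lower median in HD* than in LD animals. The smooth muscle actin gene *ACTA2* had a median of 6.01 TPM in LD and 7.04 TPM in HD* animals. *CDH5*, the endothelial cadherin, had a median of 6.88 TPM in LD and 5.04 TPM in HD* animals, and the vascular receptor *FLT1* a median of 4.91 TPM in both.

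The other higher genes belonged to no single fixed list. *PARD6A*, a subunit of the cell polarity complex, had levels of 31.4, 38.1 and 42.2 TPM (lowest, median, highest) in LD and 37.1, 43.5 and 48.8 TPM in HD* animals. The log2 fold change was 0.22 (SE 0.078), and the groups overlapped through HD* animals 3 and 4 of cohort 5. *APOL2*, of the apolipoprotein L family, had levels of 17.5, 30.4 and 36.3 TPM in LD and 25.1, 40.7 and 66.9 TPM in HD* animals. Its difference of 0.55 (SE 0.196) came to 0.87 in cohort 7a and 0.18 outside it. The highest 3 levels, from 53.5 to 66.9 TPM, all belonged to HD* animals of cohort 7a.

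*FAM178B* showed the opposite pattern between cohorts. Its levels were 3.18, 8.89 and 18.4 TPM in LD and 11.2, 18.3 and 19.4 TPM in HD* animals (log2 fold change 0.68, SE 0.259). The difference was 0.21 in cohort 7a and 1.00 outside it, a contrast that was not tested. The interferon-induced gene *IFI27* had levels of 22.4, 37.8 and 50.7 TPM in LD and 25.1, 53.5 and 108.5 TPM in HD* animals (log2 fold change 0.59, SE 0.248). Its 3 highest values were all in VHD animals, and without HD* animals 6 and 8 and LD animal 5 the difference was 0.26. The remaining higher genes by the naming rule were *SH3BGR* (0.39), *DHDH* (0.29), *CHKA* (0.24), *IGIP* (0.36) and *TMEM74B* (0.28). *CHKA* encodes choline kinase alpha, which starts the synthesis of phosphatidylcholine. For all 11 of these genes after *STON2* the limma adjusted p was 0.914.

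**Figure D3:**
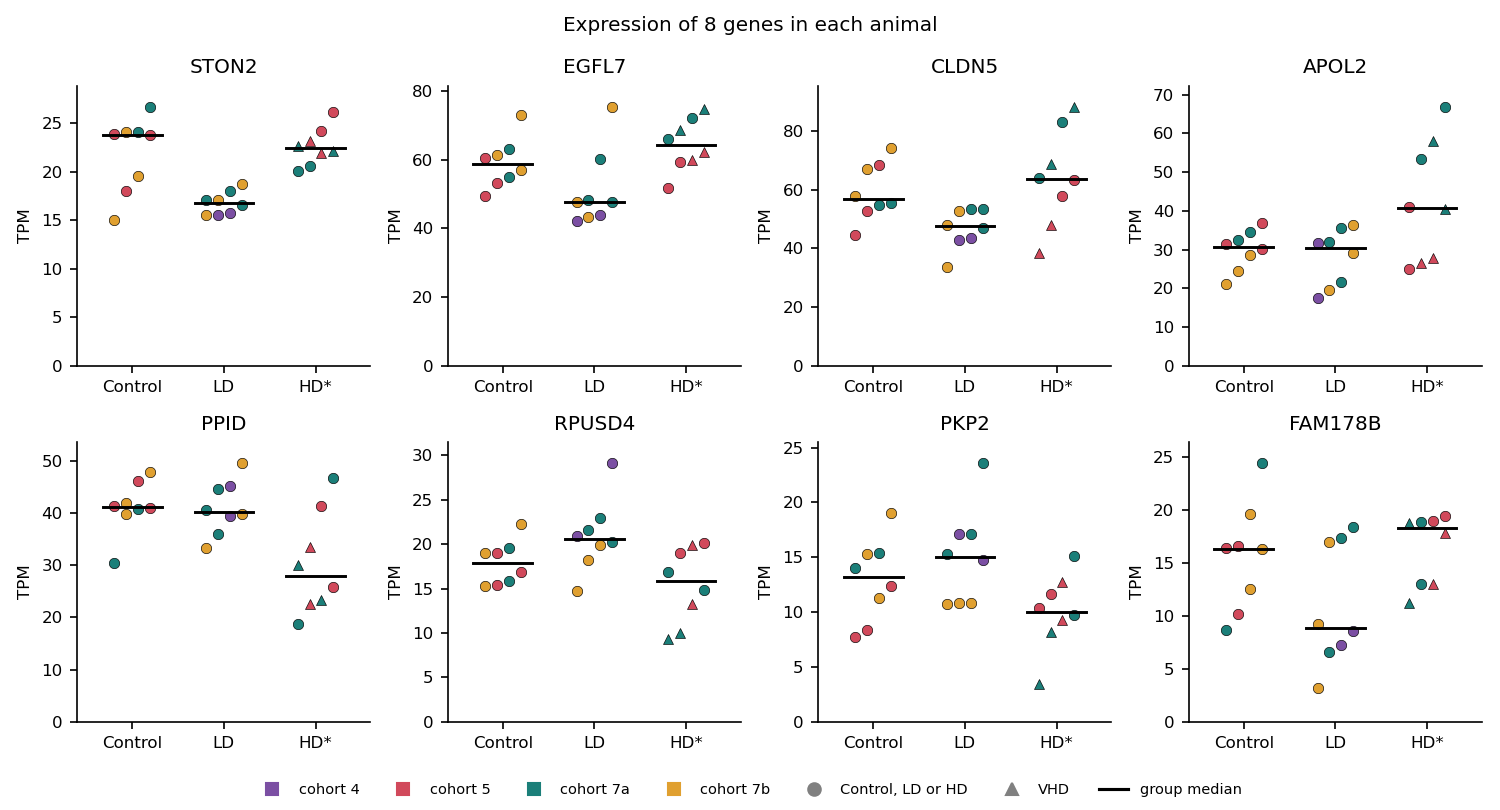
TPM of 8 genes in each control, LD and HD* animal, on axes that start at 0. Colour gives the cohort, triangles mark VHD animals and bars are group medians. *STON2* is the only one with no overlap of LD and HD* animals, and *APOL2* is highest in HD* animals of cohort 7a.

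Among genes lower in HD* animals, *PPID* had the smallest p. It encodes cyclophilin 40, a prolyl isomerase that works with the chaperone HSP90. Its lowest, median and highest levels were 33.4, 40.2 and 49.6 TPM in LD and 18.8, 27.9 and 46.7 TPM in HD* animals. HD* animals 3 and 5 alone among the 8 stood above the LD median, at 41.4 and 46.7 TPM. The log2 fold change was −0.48 (SE 0.145, limma adjusted p = 0.914), −0.51 in cohort 7a and −0.44 outside it. Controls ran from 30.4 to 47.9 TPM, with a median of 41.2 TPM. Of 60 tested heat shock proteins and co-chaperones, 7 were higher and 53 lower, beside 25.9% of all genes higher. The median of the list was −0.12, and −0.04 after TMM rescaling. *PPID* was its only member at an unadjusted p under 0.05.

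*RPUSD4*, a pseudouridine synthase that modifies mitochondrial RNA, followed. It had levels of 14.8, 20.6 and 29.1 TPM in LD and 9.34, 15.9 and 20.2 TPM in HD* animals. The log2 fold change was −0.45 (SE 0.149, limma adjusted p = 0.914), −0.75 in cohort 7a, where the groups did not overlap, and −0.16 outside it. *PKP2*, which encodes the desmosomal protein plakophilin 2, had levels of 10.8, 15.02 and 23.6 TPM in LD and 3.45, 10.1 and 15.1 TPM in HD* animals. Its difference of −0.57 (SE 0.220) came to −1.08 in cohort 7a, where all 4 HD* animals were below all 3 LD animals, and to −0.19 outside it. In cohort 7a 325 of all genes tested (3.53%) were lower without overlap. The animals of that cohort also entered the fit that named both genes.

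The remaining lower genes by the rule had log2 fold changes from −0.22 to −0.39. They were the zinc finger gene *ZNF134* (−0.34), the forkhead factor *FOXK1* (−0.32), *COX11* (−0.33), *HRASLS* (−0.33), *CCDC149* (−0.28), *TBC1D5* (−0.22), *VSTM2B* (−0.39), *SNAPC1* (−0.36) and *SENP8* (−0.39). *COX11* delivers copper to cytochrome c oxidase, *SNAPC1* takes part in the transcription of small nuclear RNAs, and *SENP8* processes the ubiquitin-like protein NEDD8. None of these passed limma's adjusted test. All had an unadjusted limma p under 0.05, which after TMM rescaling held for *ZNF134*, *FOXK1*, *HRASLS*, *VSTM2B* and *SENP8*. It did not hold for *COX11*, *CCDC149*, *TBC1D5* and *SNAPC1*.

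The 67 genes were followed through the other settings. All 67 kept their sign whichever of the 16 drinkers was left out, and 16 stayed at an unadjusted p under 0.05 in all of these fits. With cohort as a covariate 83 of all genes (0.902%) were higher and 348 (3.78%) lower at that level. Of the 67 genes, at that level were 45 after TMM rescaling, 35 with cohort as a covariate, 14 within cohort 7a and 8 in all 3. Those counts do not stand as replication, since the same animals enter each fit.

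Cohort 7a allowed the comparison within a cohort, with 4 HD* and 3 LD animals. Of 9197 genes 0 (0%) passed at an adjusted p of 0.05 (limma, smallest adjusted p = 0.697) and 105 (1.14%) had an unadjusted p under 0.05. Of these, 38 (0.413%) were higher and 67 (0.728%) lower in HD* animals. After TMM rescaling the count was 186, with 138 higher and 48 lower, so the balance of directions turned. Groups that did not overlap were found for 93 higher genes (1.01%) and 325 lower genes (3.53%). Over all genes the median log2 fold change was −0.200 in this cohort and 0.003 after TMM rescaling, so single genes are best read against that shift. HD* animals 6 and 8, with the low scaling factors, are 2 of its 4 HD* animals. Without HD* animal 8 the median was −0.098 and 67 genes had an unadjusted p under 0.05.

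The 9 drinkers outside cohort 7a shared no animal with it and gave a separate set of differences. There, 59.5% of genes were higher in HD* animals (median 0.023), 0 genes passed limma's adjusted test and 34 had an unadjusted p under 0.05. Across the 9197 genes the log2 fold changes of both sets of animals had a Pearson r of −0.021 and a Spearman correlation of −0.070. Genes are not independent replicates, and libraries, cohorts and scaling are shared within each set. The signs matched for 3931 genes (42.7%). Of the 105 genes chosen in cohort 7a, 44 (41.9%) had the same sign outside it, close to the share over all genes. Of the 34 genes chosen outside it, 19 (55.9%) had the same sign in cohort 7a.

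The single gene with the same sign and an unadjusted p under 0.05 in both sets was *WIF1*, which encodes a secreted inhibitor of Wnt signalling. It lies outside the naming rule and was picked after its values were seen. Its levels were 60.6, 77.8 and 131.7 TPM in LD and 27.7, 64.3 and 81.2 TPM in HD* animals, with overlap. The log2 fold change was −0.70 in cohort 7a and −0.73 outside it. Over all 16 drinkers it was −0.64 (SE 0.425, limma adjusted p = 0.914), with a spread shared with the controls, which ran from 5.32 to 127.2 TPM.

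**Figure D4:**
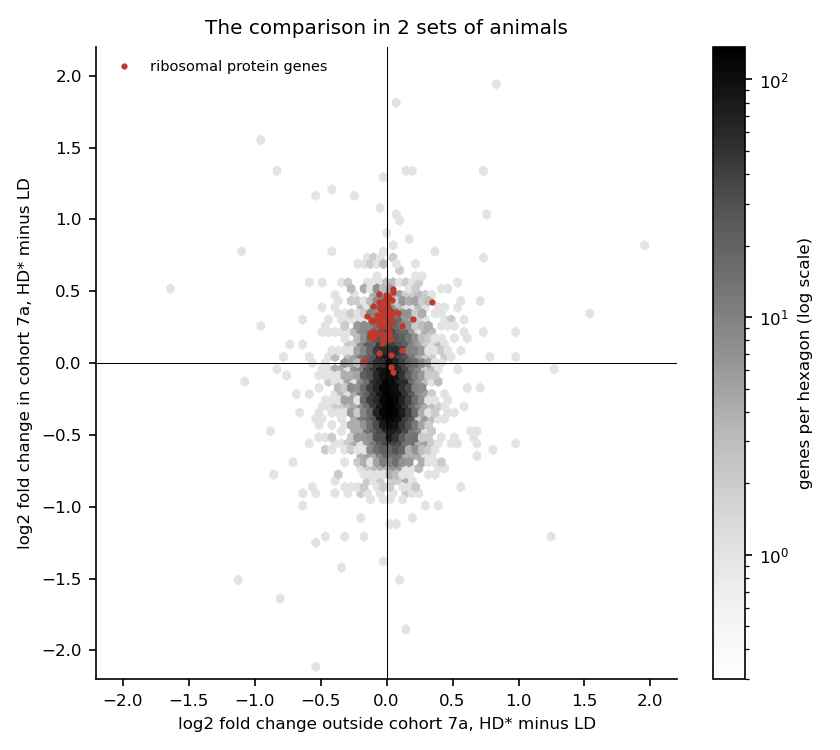
Log2 fold change (HD* minus LD) of the 9197 genes in cohort 7a (vertical) against the 9 drinkers outside it (horizontal). Grey hexagons count genes on a log scale and red points are the ribosomal protein genes, which lie mostly above 0 in cohort 7a and around 0 outside it.

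Cytosolic ribosomal protein genes, the structural parts of the translation machinery, were higher in HD* animals for 77 of 78 tested genes, beside 25.9% of all genes. Their median log2 fold change was 0.12, and 0 of them had an unadjusted p under 0.05 in limma. Their summed level ran from 80450 to 167100 TPM in LD (median 91340) and from 76960 to 180900 TPM in HD* animals (median 97860), with wide overlap. The gene with the smallest p, *RPSA*, had levels of 1008, 1456 and 1762 TPM in LD and 1105, 1710 and 2958 TPM in HD* animals (log2 fold change 0.36, SE 0.19). The median was 0.31 in cohort 7a and −0.01 outside it. Without HD* animals 6 and 8 and LD animal 5, 44 genes were higher and 34 lower, with a median of 0.01.

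The HD and VHD animals lay on opposite sides of the LD median for these genes. Summed ribosomal protein levels were between 76960 and 88940 TPM in the 4 HD animals and between 106800 and 180900 TPM in the 4 VHD animals. Set against LD animals, the median log2 fold change of the list was −0.26 for HD animals, with 0 higher and 78 lower, and 0.51 for VHD animals. Over all genes these medians were 0.03 for HD and −0.20 for VHD animals. The 77 subunits of oxidative phosphorylation showed the same order at a smaller size. Of these, 58 were higher and 19 lower in HD* animals (median 0.08), with medians of −0.08 for HD and 0.26 for VHD animals.

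Synaptic genes were mostly lower in HD* animals, by small amounts, and again with the categories apart. So were most genes tested, of which 25.9% were higher (median −0.085), against 49.2% after TMM rescaling (median −0.003). All 18 tested GABA and glycine receptor genes were lower (median −0.21, and 1 higher and 17 lower with a median of −0.12 after TMM rescaling). The median was −0.53 in cohort 7a and 0.02 outside it, 0.11 for HD animals and −0.55 for VHD animals against LD animals. Over all genes these medians were −0.20, 0.02, 0.03 and −0.20 in that order. *GABRB1*, a subunit of the GABA-A receptor, had levels of 14.96, 40.1 and 59.1 TPM in LD and 17.6, 32.4 and 36.8 TPM in HD* animals (log2 fold change −0.32, SE 0.22, limma unadjusted p = 0.149). Its groups overlapped except in cohort 7a, where the difference was −0.67. In that cohort 325 of all genes tested (3.53%) were lower without overlap. *GABRA2*, an alpha subunit of the same receptor, had a difference of −0.24.

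Glutamate receptor genes had the same direction. Of 16 tested ionotropic receptor genes 1 was higher and 15 lower (median −0.17), beside 25.9% of all genes higher. Of 6 metabotropic receptor genes 1 was higher and 5 lower (median −0.20). After TMM rescaling the ionotropic genes were 3 higher and 13 lower (median −0.09). The metabotropic genes were then 1 higher and 5 lower (median −0.12). The AMPA receptor subunit *GRIA1* had levels of 73.2, 185.9 and 266.4 TPM in LD and 49.4, 152.2 and 231.6 TPM in HD* animals (log2 fold change −0.34, SE 0.28). The difference was 0.16 for HD and −0.83 for VHD animals. *GRM7*, a presynaptic metabotropic receptor, had a median of 20.8 TPM in LD and 17.1 TPM in HD* animals (log2 fold change −0.30, SE 0.28). It was −0.83 in cohort 7a and 0.13 outside it.

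Of 36 genes of synaptic vesicle release, 3 were higher and 33 lower (median −0.21, −0.12 after TMM rescaling), beside 25.9% of all genes higher. *SYN2*, which encodes the vesicle-tethering protein synapsin 2, came closest to the threshold. It had levels of 93.5, 250.2 and 355.5 TPM in LD and 78.5, 174.6 and 230.6 TPM in HD* animals (log2 fold change −0.52, SE 0.26, limma unadjusted p = 0.0554). The lowest LD value was that of animal 5, and the 2 lowest HD* values were those of animals 6 and 8, the 3 animals with low scaling factors. The difference was −0.40 without them.

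Of 35 postsynaptic scaffold and adhesion genes, 2 were higher and 33 lower (median −0.18, −0.10 after TMM rescaling), beside 25.9% of all genes higher. *DLGAP1*, a scaffold of the glutamatergic postsynapse, had levels of 20.7, 32.7 and 72.6 TPM in LD and 15.6, 30.3 and 32.1 TPM in HD* animals (log2 fold change −0.49, SE 0.22, limma unadjusted p = 0.0368). Its 2 highest values were in LD animals 2 and 4, which also had the highest *SLC17A7* levels of the LD group, at 212.1 and 722.5 TPM. Without the 4 drinkers over 100 TPM of *SLC17A7* the difference was −0.24. The same step took *NPTXR*, a neuronal pentraxin receptor, from −0.53 to −0.06. The part of cortical glutamatergic tissue in these differences was not tested. Of 28 potassium channel genes 2 were higher and 26 lower (median −0.16, 0.24 for HD and −0.60 for VHD animals). After TMM rescaling 8 were higher and 20 lower (median −0.08).

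**Figure D5:**
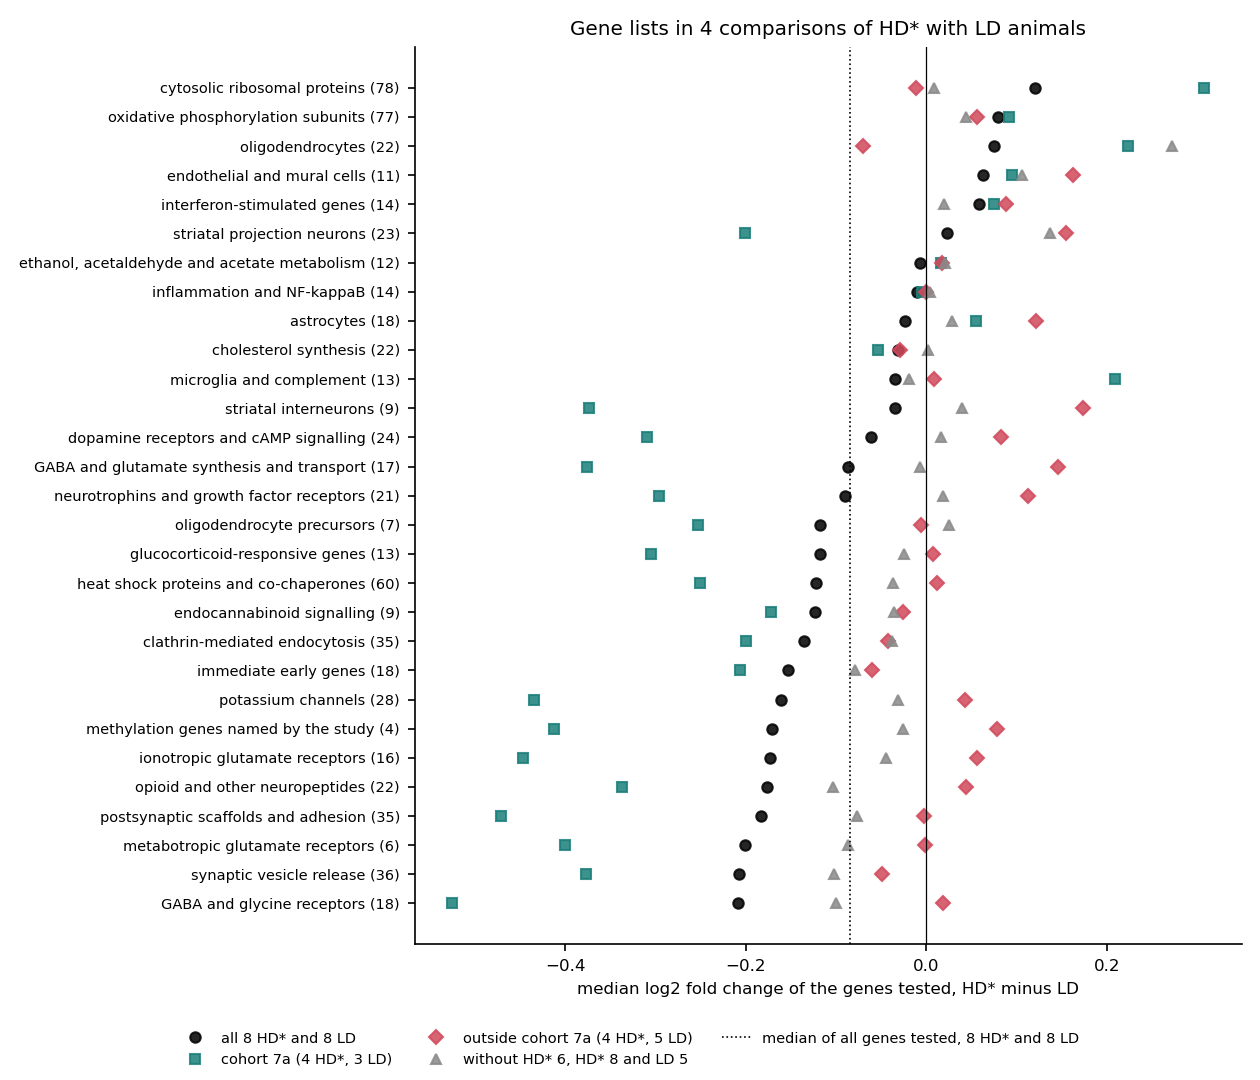
Median log2 fold change (HD* minus LD) of gene lists with at least 4 tested genes (number in brackets), over all 16 drinkers, in cohort 7a, outside it, and without the 3 animals of low scaling factor. The dotted line is the median of all 9197 genes, −0.085. Medians of synaptic lists lie farthest left in cohort 7a and near 0 outside it.

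Genes that define the projection neurons had no stable direction. Of 23 tested projection neuron markers 12 were higher and 11 lower (median 0.02), and 19 and 4 after TMM rescaling (median 0.11). With cohort as a covariate 1 was higher and 22 lower (median −0.44). Within cohort 7a 6 were higher and 17 lower (median −0.20), and outside it 23 were higher and 0 lower (median 0.15). Without the 4 drinkers over 100 TPM of *SLC17A7*, 2 were higher and 21 lower (median −0.29). None of the 23 had an unadjusted limma p under 0.05 over all drinkers, in cohort 7a or with the covariate. *DRD1* had levels of 74.6, 161.7 and 202.9 TPM in LD and 65.2, 147.8 and 230.6 TPM in HD* animals (log2 fold change −0.06, SE 0.49). *DRD2* had a median of 211.1 TPM in LD and 285.7 TPM in HD* animals (0.10, SE 0.39). The spread within each group was wide, so these SEs allow differences of about 2-fold in either direction. The list's median was 0.59 for HD and −0.51 for VHD animals against LD animals. Of 24 dopamine receptor and cAMP signalling genes, 8 were higher and 16 lower (median −0.06, and 13 higher and 11 lower with a median of 0.02 after TMM rescaling).

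The opioid and other neuropeptide genes gave 3 higher and 19 lower of 22 (median −0.18, −0.09 after TMM rescaling), beside 25.9% of all genes higher. The median was 0.12 for HD and −0.53 for VHD animals, beside 0.03 and −0.20 over all genes. *PENK*, the enkephalin precursor, had medians of 2323 TPM in LD and 2736 TPM in HD* animals (log2 fold change 0.12, SE 0.46), and *PDYN*, the dynorphin precursor, 661.1 and 627.6 TPM (−0.20, SE 0.47). Endocannabinoid genes gave 1 higher and 8 lower of 9 (median −0.12, −0.04 after TMM rescaling). Immediate early genes, which report recent neuronal activity, gave 3 higher and 15 lower of 18 (median −0.15), and 7 and 11 after TMM rescaling (median −0.07). In HD animals alone 13 were higher and 5 lower (median 0.16), and the median for VHD animals was −0.46. *FOS* among them had a median of 19.9 TPM in LD and 14.5 TPM in HD* animals (−0.31, SE 0.24, limma unadjusted p = 0.214).

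Lists of oligodendrocyte, astrocyte, microglial, immune and metabolic genes had medians between −0.03 and 0.08 over all drinkers, above the −0.085 of all genes. Oligodendrocyte precursor markers, given below, had a lower median of −0.12. Oligodendrocyte markers gave 13 higher and 9 lower of 22 (median 0.08), astrocyte markers 8 and 10 of 18 (−0.02) and microglia and complement genes 6 and 7 of 13 (−0.03). After TMM rescaling the oligodendrocyte markers were 17 higher and 5 lower (median 0.16). The microglia and complement genes had a median of −0.22 for HD and 0.29 for VHD animals, and of 0.42 with cohort as a covariate. Interferon-stimulated genes gave 9 higher and 5 lower of 14 (0.06), and 13 and 1 after TMM rescaling (0.14). Their median was −0.15 for HD and 0.39 for VHD animals. Inflammation genes gave 7 higher and 7 lower of 14 (−0.01). Of the enzymes of ethanol, acetaldehyde and acetate breakdown, 5 were higher and 7 lower of 12 (−0.01, 0.08 after TMM rescaling). *ALDH2*, the mitochondrial acetaldehyde dehydrogenase, had levels of 303.8, 345.9 and 541.9 TPM in LD and 310.7, 447.6 and 639.8 TPM in HD* animals (log2 fold change 0.30, SE 0.18, limma unadjusted p = 0.115).

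Of 22 cholesterol synthesis genes 7 were higher and 15 lower (median −0.03, 0.05 after TMM rescaling). *LSS*, which encodes lanosterol synthase, had levels of 16.7, 19.6 and 27.7 TPM in LD and 11.7, 14.8 and 24.5 TPM in HD* animals (log2 fold change −0.31, SE 0.14, limma unadjusted p = 0.0311). It was the only member of that list at an unadjusted p under 0.05. Glucocorticoid-responsive genes gave 1 higher and 12 lower of 13 (−0.12, −0.04 after TMM rescaling). Genes of GABA and glutamate synthesis and transport gave 3 and 14 of 17 (−0.09), and neurotrophin and growth factor genes 6 and 15 of 21 (−0.09). Both medians lay at that of all genes, −0.085. After TMM rescaling these lists were 7 and 10 (−0.0022) and 10 and 11 (−0.01). Striatal interneuron markers gave 2 higher and 7 lower of 9 (−0.04), near the 25.9% of all genes higher, and 5 and 4 after TMM rescaling (0.04). Oligodendrocyte precursor markers gave 1 and 6 of 7 (−0.12), and 3 and 4 after it (−0.04).

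Of 6 genes that the study takes from methylation work on low and heavy drinkers, 4 were tested and all 4 were lower in HD* animals (median −0.17), beside 25.9% of all genes higher. After TMM rescaling 1 was higher and 3 lower. The direction turned in HD animals alone, with 4 higher and 0 lower (median 0.23), while the median for VHD animals was −0.49. Over all genes these medians were 0.03 and −0.20. Outside cohort 7a 3 were higher and 1 lower. *ARHGEF7*, a guanine nucleotide exchange factor, had levels of 32.1, 48.6 and 61.2 TPM in LD and 24.4, 46.4 and 48.1 TPM in HD* animals (log2 fold change −0.22, SE 0.16). *KIRREL3*, a synaptic adhesion molecule, had levels of 32.3, 48.3 and 73.5 TPM in LD and 22.3, 46.5 and 75.2 TPM in HD* animals (−0.18, SE 0.21). The earlier work behind this list used largely the same animals, so the list is not independent evidence of a direction.

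The HD and VHD animals within the HD* group were also set apart, after earlier results had placed them on opposite sides of LD animals. Their marker sums did not overlap for some cell types. Projection neuron sums ran from 14750 to 16810 TPM in HD and from 5542 to 9841 TPM in VHD animals. Astrocyte sums ran from 12110 to 15070 TPM in HD and from 18080 to 21870 TPM in VHD animals. The cause of these differences was not tested. Against LD animals, VHD animals had 369 higher (4.01%) and 2113 lower genes (23%) at an unadjusted p under 0.05, and HD animals 78 higher (0.848%) and 92 lower (1%). Both comparisons share the LD animals, and 0 genes passed limma's adjusted test in either. The study had also contrasted these categories and reported many genes that differed, at a stricter FDR than used here. A direct test of VHD against HD animals found 1418 genes (15.4%) at an adjusted p under 0.05 (limma, 24 animals in 4 categories). The smallest adjusted p of that limma test was 0.0425, so all of these genes lay just under the threshold. The count of genes passing was 701 after TMM rescaling and 0 with 3 marker scores as covariates. It was 0 without HD* animals 6 and 8 and LD animal 5, which left HD* animals 1 and 4 as the only VHD animals. At an unadjusted p under 0.05, VHD animals had 718 higher and 3049 lower genes than HD animals, 1852 and 1609 after TMM rescaling, and 724 and 719 without those 3 animals. The excess of lower genes was thus not seen after TMM rescaling or without those 3 animals. It remained with 3 marker scores as covariates (282 higher and 956 lower) and with cohort as a covariate (770 and 3277). The count at adjusted p under 0.05 was also 0 with any 1 of HD* animals 2, 3, 5, 6, 7 and 8 left out. It was 1735 without animal 1 and 3416 without animal 4. At an unadjusted p under 0.05, lower genes still outnumbered higher ones in each of these fits, least so without animal 8 (812 higher and 1714 lower).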

How the data were processed

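NAcc core RNA from 24 animals had been made into polyA-selected libraries by the authors, aligned to the MacaM assembly with STAR 2.5.2b, counted on genes with HTSeq 0.6.1p1 and tested by them with DESeq2. The deposited values are TPM computed by the authors, with column totals of 999998 to 1000000 over 17208 symbols, and the gene lengths used are not given in the sources used here. TPM values carry no read depth, so no count test was run. The public record and the study describe library strand and read pairing differently, and neither could be checked on these values. Because TPM are shares, a gain in some genes lowers the others.

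All 24 columns were matched to animals by the animal number in the labels (0 columns left unused). Of the symbols, 27 had been turned into dates and were kept as they stood. By symbol or synonym, 8643 of the 9197 tested genes matched RefSeq of another assembly, so no coordinates are given.

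Work was done on log2(TPM + 1). The 9197 genes that averaged 10 TPM or more entered limma 3.58.1 (R 4.3.3) with an empirical Bayes trend and Benjamini-Hochberg adjustment over all of them. One model with controls, LD and HD* animals gave the contrast HD* minus LD, as in the study's 3-group design. The same test was run on the 7 drinkers of cohort 7a. Animals are unrelated and were sampled once, so n counts animals. The script was tested on simulated data. Plots were drawn with matplotlib 3.10.9 in Python 3.11.15.

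Genes are named by rule: the 12 with the smallest p in each direction, the first 2 and the 2 with the smallest p of each gene list (for lists given by a symbol pattern, the latter only), and genes whose 8 and 8 values did not overlap. A few genes that the rule names are not reported here. The animals compared, the gene lists and the tests were chosen with earlier results of these data known.

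Other settings were a pseudocount of 0.1 or of 8, a filter of 1 TPM, of 100 TPM or none, TMM rescaling (30% of M and 5% of A trimmed), only the 16 drinkers in the model, cohort or an oligodendrocyte score as a covariate, array weights, no cohort 4, HD or VHD animals alone, and each drinker left out in turn. Chosen after seeing the data were leaving out 3 drinkers with a TMM factor under 0.9, leaving out 4 drinkers with *SLC17A7* over 100 TPM, 3 marker scores as covariates, the 9 drinkers outside cohort 7a, and the test of VHD against HD animals. No sequences are shown.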

Additional observations from a re-analysis of the deposited data

Results flagged for a closer look

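Among 106 named genes, each checked in the 8 LD and the 8 HD* animals (212 groups of values), 22 single values stood apart from the rest of their group by Dixon's 95% limit. For normally distributed values, chance places about 1 in 20 groups beyond that limit. The check used TPM without a log transform, and the groups share the same animals. The number of values found is therefore not a test against that share. LD animal 4 stood apart for *EBP* at 65.3 TPM (the others 38.8 to 50.7), *GABRE* at 32.1 TPM (the others 5 to 16.5), *NRN1* at 178 TPM (the others 5.4 to 78.2), *SLC17A7* at 722 TPM (the others 0.939 to 212) and *SNAP25* at 2160 TPM (the others 782 to 1430). It did so as well for *STX1A* at 342 TPM (the others 94.3 to 177), *TMEM74B* at 24.7 TPM (the others 36.5 to 43.3) and *TNFSF10* at 24.5 TPM (the others 10.5 to 14.1). HD* animal 4 stood apart for *AQP4* at 419 TPM (the others 120 to 214), *IFI6* at 918 TPM (the others 341 to 465), *ISG15* at 68.5 TPM (the others 3.96 to 26.8) and *ZIC1* at 15.9 TPM (the others 3.36 to 9.04). LD animal 5 stood apart for *AIF1* at 62.6 TPM (the others 27.2 to 43.5) and *MBP* at 1800 TPM (the others 209 to 808). LD animal 2 stood apart for *CCDC149* at 71.5 TPM (the others 40.2 to 52) and *ZIC1* at 44.8 TPM (the others 2.76 to 8.45). HD* animal 7 stood apart for *EBP* at 71 TPM (the others 47.1 to 54.2) and *SLC17A7* at 186 TPM (the others 0.866 to 84.9). LD animal 8 stood apart for *DHDH* at 23 TPM (the others 13.5 to 17.2). LD animal 6 stood apart for *PTN* at 391 TPM (the others 216 to 291). HD* animal 1 stood apart for *TMEM74B* at 68.7 TPM (the others 35.8 to 50.4). HD* animal 8 stood apart for *ZNF134* at 18.1 TPM (the others 25.1 to 30).

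VHD and HD animals differed for 1418 of 9197 genes at an adjusted p under 0.05 (limma, VHD minus HD, 4 and 4 animals). The smallest adjusted p of that limma test was 0.0425. VHD animals had 718 higher and 3049 lower genes at an unadjusted p under 0.05. After TMM rescaling these were 1852 and 1609, and without the 3 drinkers of low TMM factor 724 and 719. They were 282 and 956 with 3 marker scores as covariates. With 3 marker scores as covariates, or without those 3 drinkers, 0 genes passed the adjusted test. The cause was not tested.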

How the results depend on the processing

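No gene passed an adjusted p of 0.05 for HD* against LD animals in any setting tried, over all drinkers or in cohort 7a, with a smallest adjusted p between 0.169 (VHD animals alone) and 1 over all drinkers. The count at an unadjusted p under 0.05, 67 genes, moved to 253 with no filter, 147 and 10 with filters of 1 and 100 TPM, 108 after TMM rescaling, 431 with cohort and 101 with an oligodendrocyte score as a covariate, 389 with array weights, 33 without cohort 4, 170 with HD and 2482 with VHD animals alone, 40 without the 3 drinkers of low TMM factor, 310 with 3 marker scores and 34 outside cohort 7a. Leaving out 1 drinker gave between 32 (without HD* animal 8) and 356 (without LD animal 5). In cohort 7a the 105 genes at that level became between 35 (without LD animal 7) and 687 (without HD* animal 5). The 1418 genes between VHD and HD animals became 701 after TMM rescaling, 2325 with cohort, 0 with 3 marker scores, 0 without the 3 drinkers of low factor, and between 0 and 3416 with 1 HD* animal left out. The causes were not tested. No paired analysis was possible because the animals are unrelated and the labels give no replicate number that groups share. The depth of single libraries is unknown here, so its limits could not be assessed.

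Differences of named genes that changed sign are given as log2 fold changes. With HD animals alone they were −0.30 for *AIF1*, −0.081 for *APOE*, 0.027 for *ARHGEF7*, −0.076 for *C1QA*, 0.46 for *CNR1*, 0.024 for *CNRIP1*, 0.17 for *DAGLA*, 0.54 for *DRD1*, −0.16 for *FGF1*, 0.24 for *FOSB*, 0.10 for *GAD1*, 0.38 for *GAD2*, −0.36 for *GFAP*, 0.16 for *GRIA1*, 0.18 for *GRIA2*, 0.092 for *GRM3*, 0.19 for *GRM7*, 0.24 for *HMGCS1*, −0.14 for *IFI6*, −0.85 for *ISG15*, 0.48 for *KCNA1*, 0.32 for *KCNA2*, 0.084 for *KCNJ9*, 0.15 for *KIRREL3*, −0.062 for *MBP*, 0.091 for *NR3C1*, 0.20 for *PDYN*, 0.067 for *PRKAR1A*, −0.18 for *RPL35*, −0.055 for *RPSA*, −0.17 for *S100B*, 0.070 for *SLC17A7*, 0.078 for *SLC38A1* and 0.27 for *SNAP25*. Among the 9 drinkers outside cohort 7a they were 0.083 for *ADH5*, 0.032 for *ALDH5A1*, 0.24 for *AQP4*, 0.019 for *DAGLA*, 0.0011 for *DLG1*, 0.066 for *DLG2*, 0.32 for *DRD1*, 0.025 for *GABRA2*, 0.062 for *GAD1*, 0.17 for *GAD2*, 0.00078 for *GRIA1*, 0.069 for *GRIA2*, 0.13 for *GRM7*, 0.074 for *KCNA1*, 0.21 for *KCNA2*, 0.063 for *KIRREL3*, 0.035 for *LYZ*, 0.0058 for *NR3C1*, 0.0076 for *NR3C2*, 0.0060 for *PDYN*, 0.15 for *PTPRZ1* and 0.15 for *SLC38A1*. With array weights they were 0.093 for *CNR1*, 0.048 for *DLG1*, 0.12 for *DRD1*, 0.023 for *GABRE*, 0.045 for *HMGCS1*, −0.029 for *IFI6*, −0.36 for *ISG15*, 0.0019 for *KCNA1*, 0.020 for *KCNA2*, 0.0084 for *LYZ*, 0.016 for *NR3C1*, 0.23 for *NRN1*, 1.25 for *SLC17A7* and 0.085 for *SNAP25*. Without the drinkers over 100 TPM of *SLC17A7* they were 0.10 for *ADH5*, 0.047 for *AQP4*, 0.65 for *CCK*, 0.046 for *DLG2*, −0.26 for *DRD2*, 0.18 for *LYZ*, 0.69 for *NRN1*, −0.30 for *PENK*, −0.36 for *PPP1R1B*, 0.014 for *PTN*, −0.10 for *RASGRP2*, 0.93 for *SLC17A7* and 0.13 for *ZIC1*. With VHD animals alone they were 0.15 for *ADH5*, 0.14 for *AQP4*, −0.49 for *DRD2*, 0.22 for *LYZ*, −0.41 for *PENK*, −0.41 for *PPP1R1B*, 0.034 for *PTN*, −0.12 for *RASGRP2* and −0.36 for *SCN4B*. With cohort as a covariate they were 0.074 for *ADH5*, −0.32 for *DRD2*, 0.052 for *GABRE*, 0.034 for *LYZ*, −0.31 for *PENK*, −0.41 for *PPP1R1B*, −0.099 for *RASGRP2*, −0.095 for *SCN4B* and 0.027 for *ZIC1*. Without the 3 drinkers of low TMM factor they were 0.026 for *ADH5*, 0.046 for *DLG1*, 0.12 for *DRD1*, 0.066 for *GAD2*, −0.20 for *ISG15* and 0.10 for *KCNA2*. After TMM rescaling they were 0.085 for *ADH5*, 0.019 for *DLG1*, 0.024 for *DLG2*, 0.027 for *DRD1* and 0.045 for *LYZ*. Without cohort 4 they were 0.014 for *ADH5*, 0.0030 for *GAD2*, −0.011 for *ISG15* and 0.054 for *ZIC1*. With 3 marker scores as covariates they were 0.018 for *ADH5* and 0.097 for *SLC17A7*. With 1 drinker left out the range was −0.076 to 0.052 for *ADH5*, −0.18 to 0.087 for *DRD1*, −0.28 to 0.011 for *GAD2*, −0.059 to 0.16 for *IFI6*, −0.33 to 0.21 for *ISG15*, −0.27 to 0.0025 for *KCNA2*, −0.11 to 0.10 for *LYZ*, −0.040 to 0.28 for *PPP1R1B* and −0.48 to 0.033 for *ZIC1*.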
